A study of Mus musculus with 12 samples.

Results

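The transcripts of 6 receptors of the chemokine receptor family, Ccrl2, Ccr7, Ccr1, Cxcr4, Ccr2 and Cx3cr1, were followed in resting and LPS-stimulated mouse peritoneal macrophages. They were taken by gene symbol from tables of 16920 genes, and all 6 were among the 12064 genes with enough counts to be tested. To investigate the part of Ythdf1, a protein that binds N6-methyladenosine in mRNA, in the answer of macrophages to bacterial lipopolysaccharide (LPS), the study sequenced RNA of peritoneal macrophages from C57BL/6 mice, single-end, on a BGISEQ-500. There were 4 groups of 3 libraries, all kept for 6 h: wild-type cells with PBS (WT PBS), wild-type cells with LPS at 1 µg/mL (WT LPS), cells labelled Ythdf1-/- with PBS (KO PBS) and cells labelled Ythdf1-/- with LPS at 1 µg/mL (KO LPS). The cells of every group had been drawn into the peritoneum of young adult mice with an irritant (starch broth in the series record, thioglycollate in the study's methods) and cultured overnight. The replicates are described as independent samples, but how many mice gave cells to each is not given in the sources used here.

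The label KO could not be seen in the mRNA of the targeted gene. The level of Ythdf1, as the library-scaled count that edgeR reports (CPM), was 43.5 ± 1.54 (SD, n = 3) in WT PBS and 57.2 ± 1.53 in KO PBS. With LPS it was 202 ± 9.37 in WT and 198 ± 6.94 in KO-labelled libraries. Every genotype comparison therefore rests on the labels. Library totals lay between 21546274 and 22017005 counts, and 3 counts, used as the floor, equalled 0.105 to 0.187 CPM. WT LPS replicate 1 stood apart from its group, with a mean chi-square per gene of 31.4 and 24.4 against replicates 2 and 3, which differed from each other by 3.01. The 10 general macrophage genes checked were above the floor in every group and summed to 17460 to 20040 CPM, mostly Lyz2 and Cd68. Of 8 T and NK cell genes 5, among them Cd3e, Cd3d and Cd3g, were at or under the floor in every group, but the list summed to 2.35 to 2.97 CPM in WT PBS, 10.5 to 14.2 in WT LPS, 2.02 to 2.35 in KO PBS and 5.03 to 5.57 in KO LPS, and Lck made up most of the LPS sums (10.3 CPM in WT LPS, 3.96 in KO LPS). Of 6 neutrophil genes in the files S100a9 and Retnlg were at or under the floor in every group, and the list, mostly S100a8 and Cxcr2, summed to 5.65 to 6.94 CPM in WT PBS, 11.9 to 14.5 in WT LPS, 7.42 to 7.97 in KO PBS and 13.9 to 21.9 in KO LPS. The 6 B cell genes in the files summed to 1.65 to 1.92 CPM in WT PBS, 0.797 to 0.983 in WT LPS, 1.49 to 2.001 in KO PBS and 0.498 to 1.22 in KO LPS, and Cd79b, the only one tested, went from 1.39 to 0.209 CPM in WT. The part of these genes in the results was not tested.

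Chemokine receptors pass through the membrane in multiple helices and couple to inhibitory G proteins, so that a cell moves along a gradient of ligand. Ccr2 brings monocytes out of the bone marrow towards Ccl2 and Ccl7, Ccr1 answers Ccl3, Ccl5 and Ccl9 at inflamed sites, Cxcr4 holds leukocytes where Cxcl12 is made, Cx3cr1 binds the membrane-anchored fractalkine Cx3cl1, and Ccr7 guides cells to lymph nodes along Ccl19 and Ccl21. Ccrl2 is atypical, since it binds chemerin and presents it to neighbouring cells without signalling through G proteins itself.

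Of the 6 genes, 4 lie on mouse chromosome 9 (GRCm38.p6): Ccrl2 at chr9:111054834-111057518 and Cx3cr1 at chr9:120048683-120068296, both on the minus strand as is Ccr1 at chr9:123962126-123968692, and Ccr2 at chr9:124101918-124109140 on the plus strand. Ccr7 lies at chr11:99144199-99155077 and Cxcr4 at chr1:128588199-128592299, both on the minus strand. Ccrl2 and Ccr1 span 12.9 Mb, ends included, which holds 278 RefSeq genes, 73 of which were tested, and 23 of these rose and 32 fell with LPS in WT, where 36.5% of all genes tested rose and 40.2% fell.

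The 250 bases before the start of Ccrl2, the member with the highest level under LPS, and of Cxcr4, the member that fell the most, are printed from RefSeq (GRCm38.p6) for comparison. For Ccrl2 this is the first of 3 listed starts. They cover chr9:111057519-111057768 and chr1:128592300-128592549, both read 5′ to 3′ on the minus strand, and capitals mark the match to the NF-kB consensus.
Ccrl2: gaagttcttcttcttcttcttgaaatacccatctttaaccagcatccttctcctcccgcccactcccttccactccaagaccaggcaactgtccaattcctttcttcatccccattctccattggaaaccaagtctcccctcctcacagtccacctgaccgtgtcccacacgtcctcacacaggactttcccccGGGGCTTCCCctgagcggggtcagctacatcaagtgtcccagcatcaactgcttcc
Cxcr4: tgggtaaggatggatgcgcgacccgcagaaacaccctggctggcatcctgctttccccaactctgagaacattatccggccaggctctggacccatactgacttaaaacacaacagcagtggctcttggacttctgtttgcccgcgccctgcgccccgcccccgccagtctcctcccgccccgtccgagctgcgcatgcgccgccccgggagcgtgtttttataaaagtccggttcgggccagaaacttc
The match in Ccrl2, GGGGCTTCCC, begins 56 bases before the start, and 4.51% of the 32851 promoter windows in the table (250 bases before to 50 after a start, both strands) hold one. The windows of the other listed Ccrl2 starts held no such match. ACGTG, a hypoxia response core held by 19.6% of windows, was found on the other strand of the same Ccrl2 window, 82 bases before the start. GAGGAA, a PU.1 core held by 28.3%, was found 129 bases before the start of Ccr1. Neither an interferon response motif (3.44% of windows), nor TTCNNNGAA for STAT (8.3%), nor TGANTCA for AP-1 (7.81%) occurred in the windows of the 5 members that the table covers, and the windows of Cxcr4, Ccr2 and Cx3cr1 held none of the 6 motifs. These matches describe letters only, and Ccr7 had no entry.

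Reads of 50 bases cannot always be assigned to 1 receptor gene. Of the 6758 words of 50 bases in the annotated transcripts of Ccr2, 129 (1.91%) occur in another gene as well. For Cx3cr1 it was 47 of 4453 words (1.06%), mostly shared with the overlapping Gm33858. The expected counts of Ccr2 and Cx3cr1 had decimals in all 12 libraries and those of the other 4 members in none, in which no word was shared. Values of Ccr2 and Cx3cr1 are uncertain to that extent.

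To learn how LPS changed the receptors in wild-type macrophages, WT LPS was compared with WT PBS. Ccrl2, Ccr7 and Ccr1 rose, and Cxcr4, Ccr2 and Cx3cr1 fell. The libraries of both treatments were free of overlap for all 6. A call was common in this comparison, as 76.7% of the genes tested passed (36.5% higher, 40.2% lower) and 78.2% had groups free of overlap. All but Ccr1 changed by more than 1 log2 unit, as did 36.4% of genes.

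Ccrl2 stood at 53.0, 58.1 and 55.0 CPM in the WT PBS libraries (replicates 1, 2 and 3) and at 1187, 1197 and 1197 CPM in WT LPS. The LPS libraries were almost alike, and all lay far above the PBS libraries. The log2 fold change was 4.43 ± 0.0645 (SE, adjusted p = 1.62e-18), 21.6-fold.

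Ccr7, the lymph node homing receptor, was nearly silent at rest, with 7, 5 and 5 counts or 0.253, 0.179 and 0.179 CPM in WT PBS. With LPS it had 138, 162 and 164 counts, at 7.98, 9.22 and 9.25 CPM. Every LPS library was far above every PBS library, with a log2 fold change of 5.40 ± 0.205 (adjusted p = 1.87e-13). Markers of dendritic cells, which use Ccr7, moved with it. The 9 genes of that list summed to 14.6 to 18.0 CPM in WT PBS and 164 to 180 CPM in WT LPS, carried by Ccl22 (93.3 CPM in WT LPS) and Fscn1 (76.2 CPM), while Flt3, Clec9a, Cd209a and Itgae were at or under the floor in all WT LPS libraries. Their part in the rise of Ccr7 was not tested.

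Ccr1 had 80.7, 77.9 and 83.1 CPM in WT PBS and 120, 155 and 161 CPM in WT LPS. Replicate 1 was the lowest LPS library but still above every PBS library. The log2 fold change was 0.85 ± 0.0884 (adjusted p = 1.59e-07). With libraries scaled by their totals alone it was 0.19 and did not pass (adjusted p = 0.0723). That scaling lowered the median change of all genes in WT by 0.66 on the log2 scale, and changes here are relative to the trimmed mean of M values (TMM).

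Cxcr4 went the other way. It had 64.1, 72.2 and 69.8 CPM in WT PBS and 1.56, 1.77 and 1.35 CPM in WT LPS, where 27, 31 and 24 counts were left. Every LPS library was far under every PBS library, with a log2 fold change of -5.46 ± 0.0993 (adjusted p = 1.60e-17), 43.9-fold lower and at rank 29 from the bottom of the 12064 genes.

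Ccr2, the monocyte receptor, had 11.4, 12.1 and 12.7 CPM in WT PBS and 1.62, 2.39 and 2.65 CPM in WT LPS. The log2 fold change was -2.44 ± 0.172 (adjusted p = 9.92e-10). While Ccr2 fell, the 7 other monocyte genes checked did not fall in sum, at 181 to 182 CPM in WT PBS and 818 to 880 CPM in WT LPS. Most of that sum was Vcan, at 4.04 and 551 CPM, and F13a1 stood at 76.9 and 46.8 CPM. The part of such cells in the fall of Ccr2 was not tested. In bulk RNA, fewer cells of a type and less RNA per cell cannot be told apart.

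Cx3cr1 was scarce throughout, with 1.01, 1.11 and 1.001 CPM in WT PBS and 0.405, 0.228 and 0.0564 CPM in WT LPS. The LPS values come from 7, 4 and 1 counts, and the last is under the floor. The log2 fold change of -2.16 ± 0.394 (adjusted p = 9.93e-05) was -2.83 without WT LPS replicate 1 and -1.70 without WT LPS replicate 3.

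**Figure D1:**
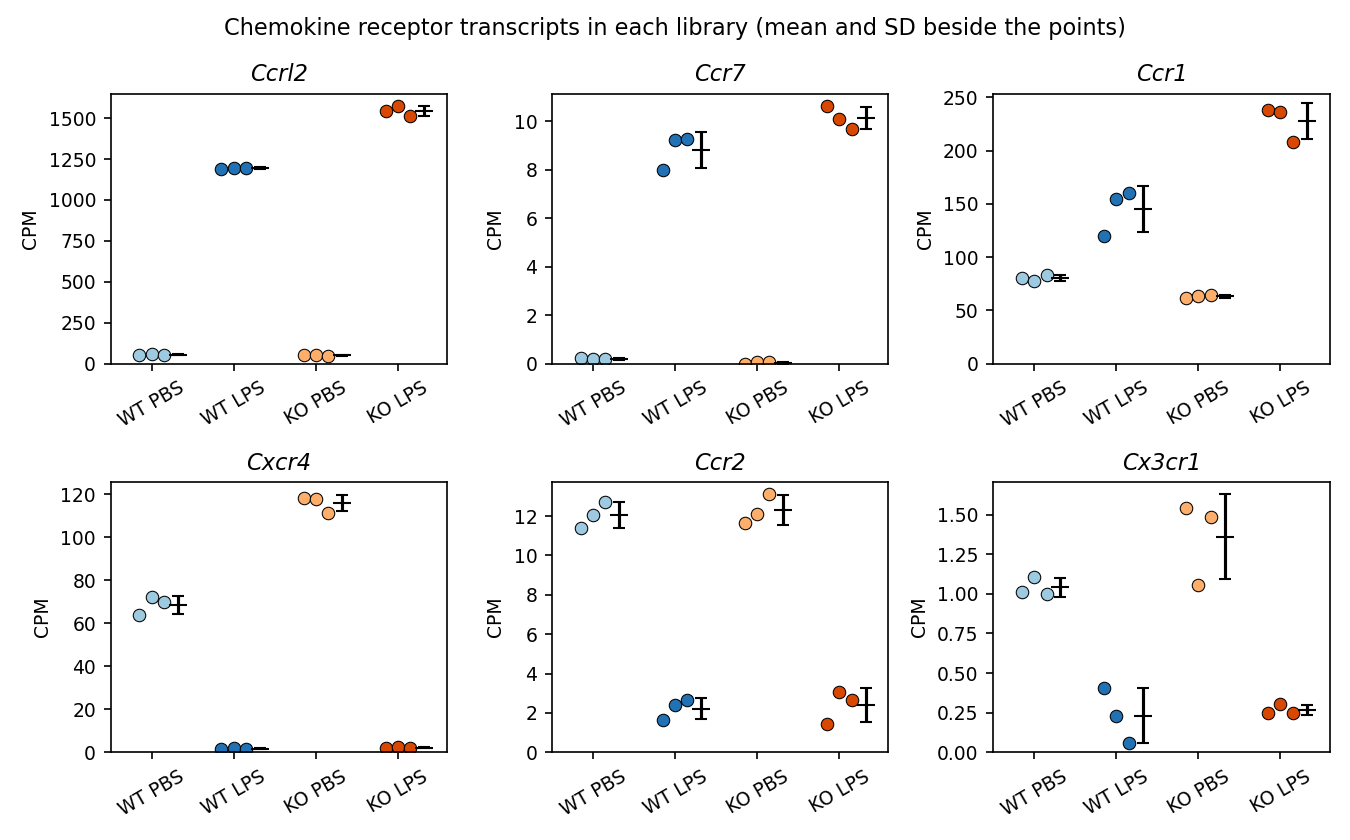
CPM (linear axes starting at 0, a scale of its own for each gene) of the 6 receptor transcripts in the 12 libraries. Points are libraries in the order of replicates 1 to 3, and the bar beside them gives the mean and SD (n = 3). The 3 genes of the upper row were higher and the 3 of the lower row lower with LPS under both labels. Resting Cxcr4 was higher in KO PBS (mean 116 CPM) than in WT PBS (68.7 CPM).

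The make-up of the receptors changed as a whole. Levels were set per kb of the longest annotated transcript for a rough comparison between genes, as the transcripts expressed were not determined. The order in WT PBS was Cxcr4 (38.1 ± 2.31 CPM per kb, SD, n = 3), Ccr1 (28.5 ± 0.917), Ccrl2 (22.5 ± 1.03), Ccr2 (2.11 ± 0.116), Cx3cr1 (0.232 ± 0.0132) and Ccr7 (0.103 ± 0.0217). In WT LPS it was Ccrl2 (486 ± 2.31 CPM per kb), Ccr1 (51.3 ± 7.72), Ccr7 (4.46 ± 0.367), Cxcr4 (0.864 ± 0.114), Ccr2 (0.388 ± 0.0937) and Cx3cr1 (0.0511 ± 0.0388). Neighbours in both orders differed by more than their SDs, which do not cover the choice of length. By CPM alone, Ccr1 (80.6) was above Cxcr4 (68.7) in WT PBS, and Ccr2 (2.22) was above Cxcr4 (1.56) in WT LPS. Cxcr4 made up 40.4% to 42.8% of the summed CPM per kb of the 6 genes in WT PBS libraries and 0.137% to 0.179% in WT LPS libraries. Ccrl2 went from 24.1% to 25.2% at rest to 88.6% to 91.0% with LPS. The sum itself rose from 87.9 to 93.6 CPM per kb to 531 to 550 CPM per kb.

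In KO PBS the order was the same as in WT PBS, led by Cxcr4 (64.2 ± 2.15 CPM per kb), but Ccr1 (22.4 ± 0.509) and Ccrl2 (21.5 ± 1.31) did not differ beyond their spread. Cxcr4 made up 57.3% to 59.1% of the sum there. The order in KO LPS was that of WT LPS, with Ccrl2 at 628 ± 12.1 and Ccr1 at 80.4 ± 5.91 CPM per kb, and Ccrl2 made up 87.3% to 88.5%.

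**Figure D2:**
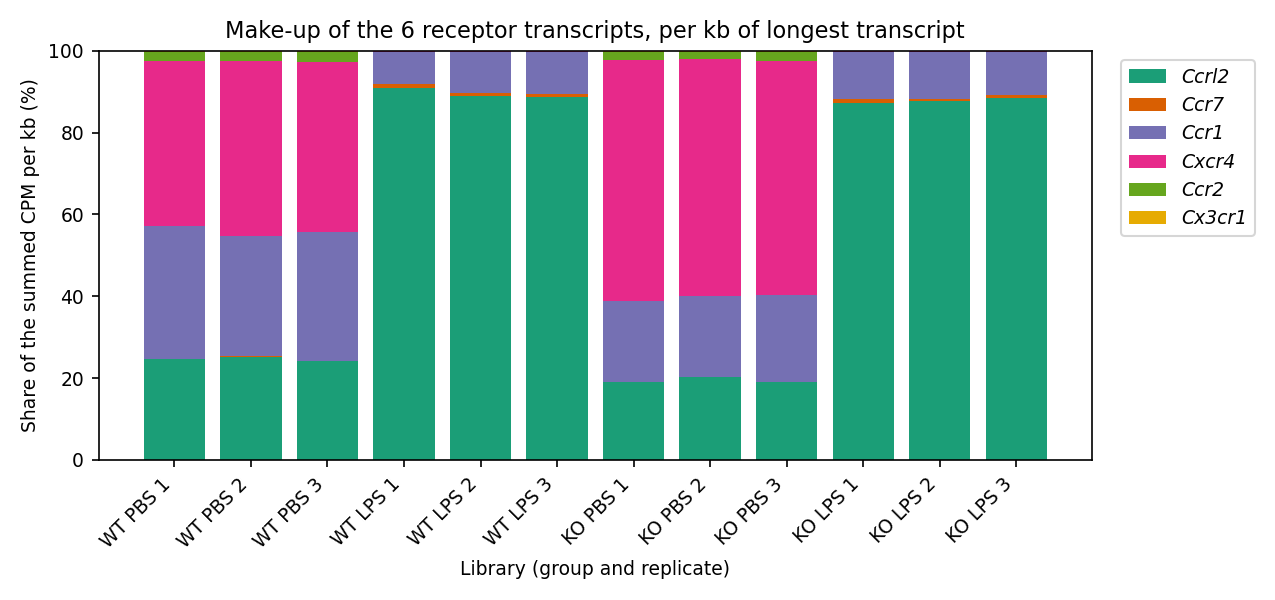
Share (in percent) of each receptor in the summed CPM per kb of the 6 transcripts, 1 bar per library. Cxcr4, Ccr1 and Ccrl2 filled nearly all of the PBS bars, and Ccrl2 alone took 87.3% to 91.0% of the LPS bars.

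The same comparison was made in the KO-labelled cells. All 6 members passed in the direction seen in WT, 3 higher and 3 lower, again without overlap between PBS and LPS libraries, and all 6 by more than 1 log2 unit, as did 41.7% of genes. Of all genes tested, 79.9% passed (38.8% higher, 41.1% lower), and 81.3% were free of overlap. Ccrl2 had 51.7, 56.4 and 50.3 CPM in KO PBS and 1542, 1574 and 1514 CPM in KO LPS, a log2 fold change of 4.87 ± 0.0658 (adjusted p = 5.31e-19). Ccr1 had 62.1, 63.1 and 65.0 CPM in KO PBS and 238, 237 and 208 CPM in KO LPS, a log2 fold change of 1.84 ± 0.0901 (adjusted p = 5.42e-12). The lowest KO LPS library of either gene lay above the highest WT LPS library.

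Ccr7 had 0, 2 and 2 counts in KO PBS, all under the floor, against 173, 165 and 156 counts in KO LPS (10.6, 10.1 and 9.70 CPM). It was at least 95.4-fold higher with LPS, counted against the floor of 3 counts per library (adjusted p = 3.15e-14). The dendritic cell list summed to 7.7 to 8.6 CPM in KO PBS and 185 to 199 CPM in KO LPS.

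Cxcr4 fell from 118, 118 and 111 CPM to 2.09, 2.39 and 2.18 CPM, by 5.70 ± 0.0937 on the log2 scale (adjusted p = 4.01e-18). Ccr2 had 11.7, 12.1 and 13.1 CPM in KO PBS and 1.41, 3.06 and 2.67 CPM in KO LPS, a log2 fold change of -2.37 ± 0.172 (adjusted p = 1.30e-09). Cx3cr1 had 1.54, 1.05 and 1.49 CPM in KO PBS and 0.245, 0.306 and 0.249 CPM in KO LPS, a log2 fold change of -2.33 ± 0.372 (adjusted p = 2.29e-05). For all of these the highest LPS library was under the lowest PBS library. The monocyte genes summed to 256 to 260 CPM in KO PBS and 1023 to 1226 CPM in KO LPS.

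To ask whether the genotype label went with the receptors at rest, KO PBS was compared with WT PBS. Cxcr4 was higher in the KO-labelled cells and Ccr1 and Ccr7 were lower. In these 3 genes the libraries did not overlap. Of all genes tested, 25.3% passed (12.3% higher, 13% lower) and 48.1% were free of overlap. Cxcr4 had 118, 118 and 111 CPM in KO PBS against 64.1, 72.2 and 69.8 CPM in WT PBS, a log2 fold change of 0.75 ± 0.0609 (adjusted p = 2.79e-07), at rank 253 from the top. It passed under all 21 alternatives, at 0.73 to 0.80.

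The lower resting Ccr1, with a log2 fold change of -0.35 ± 0.0887 (adjusted p = 0.00947), was less firm. The call was lost when any of WT PBS replicate 1 (-0.32), replicate 1 of KO PBS (-0.30) or replicate 2 of KO PBS (-0.32) was left out. Ccr7 was at least 1.92-fold lower in KO PBS, counted against the floor, from 5 to 7 counts in WT PBS libraries and 0 to 2 in KO PBS libraries (adjusted p = 0.0206). It did not pass without WT PBS replicate 1 (adjusted p = 0.0832) or KO PBS replicate 1 (adjusted p = 0.143). The monocyte and dendritic cell lists also differed between the labels at rest, by the ranges given with each comparison above. So did the resident peritoneal macrophage list, at 14.9 to 16.9 CPM in WT PBS and 12.4 to 12.9 CPM in KO PBS, in which 5 of the 7 genes tested were lower, Gata6 among them (-1.30, adjusted p = 0.000201), and Icam2 was higher (0.50, adjusted p = 0.0187). Of the 10 general macrophage genes Mrc1 (-1.20, adjusted p = 5.49e-08), Adgre1 and Aif1 were lower and Cd14 was higher. The part of these lists was not tested. No difference was detected for Ccrl2 (-0.068 ± 0.0585, adjusted p = 0.438), Ccr2 (0.029 ± 0.121, adjusted p = 0.894) or Cx3cr1 (0.38 ± 0.250, adjusted p = 0.293), and their libraries overlapped.

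Under LPS, KO-labelled cells had more Ccrl2, Ccr1 and Cxcr4 than wild-type cells, and none of the 6 receptors was called lower. Of all genes tested, 41.4% passed, 22.1% higher and 19.3% lower. The mean of Ccrl2 was 1543 ± 29.8 CPM (SD, n = 3) in KO LPS and 1194 ± 5.67 CPM in WT LPS, a log2 fold change of 0.37 ± 0.0554 (adjusted p = 7.01e-05). Ccr1 reached 228 ± 16.7 and 145 ± 21.9 CPM, a log2 fold change of 0.65 ± 0.0875 (adjusted p = 2.65e-05). Both were called under every alternative that was run. Marker lists differed between the labels under LPS as well. The 8 genes of resident peritoneal macrophages summed to 26.5 to 27.6 CPM in WT LPS libraries and 14.6 to 16.9 CPM in KO LPS libraries, with 5 of the 7 tested called lower. The monocyte sums were 818 to 880 and 1023 to 1226 CPM, with 3 of 7 genes called higher. The dendritic cell sums were 164 to 180 and 185 to 199 CPM, but the genes went both ways, since Ccl17 and Ccl22 (93.3 and 148.5 CPM) were higher and Fscn1 was lower (76.2 and 36.3 CPM, log2 fold change -1.07, adjusted p = 1.57e-07). Of the 10 general macrophage genes 5 were lower, among them Mertk (-1.24, adjusted p = 1.91e-09) and Mrc1 (-1.10, adjusted p = 8.45e-08), and Cd14 was higher. Their part in these differences was not tested.

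Cxcr4, although almost gone, was at 34, 39 and 35 counts in KO LPS and 27, 31 and 24 in WT LPS, a log2 fold change of 0.51 ± 0.164 (adjusted p = 0.0399). The libraries did not overlap in CPM. This call was lost in 11 of 21 alternatives, DESeq2 (0.51, adjusted p = 0.0530) and the omission of WT LPS replicate 1 (0.51) or 3 (0.41) or of KO LPS replicate 1 (0.55), 2 (0.45) or 3 (0.52) among them, with adjusted p between 0.0329 and 0.149 when 1 library was left out. Ccr7 had means of 10.1 ± 0.459 CPM (KO LPS) and 8.82 ± 0.726 CPM (WT LPS), and did not pass (0.20 ± 0.115, adjusted p = 0.180) although its libraries did not overlap either. With Ccrl2, Ccr1 and Cxcr4 it made 4 of 6 members free of overlap, as were 45.6% of all genes. Ccr2 (0.098 ± 0.241, adjusted p = 0.774) and Cx3cr1 (0.22 ± 0.563, adjusted p = 0.783) overlapped, and the sign of both turned when single libraries were left out. Cx3cr1 was 0.89 without WT LPS replicate 1 and -0.24 without WT LPS replicate 3.

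**Figure D3:**
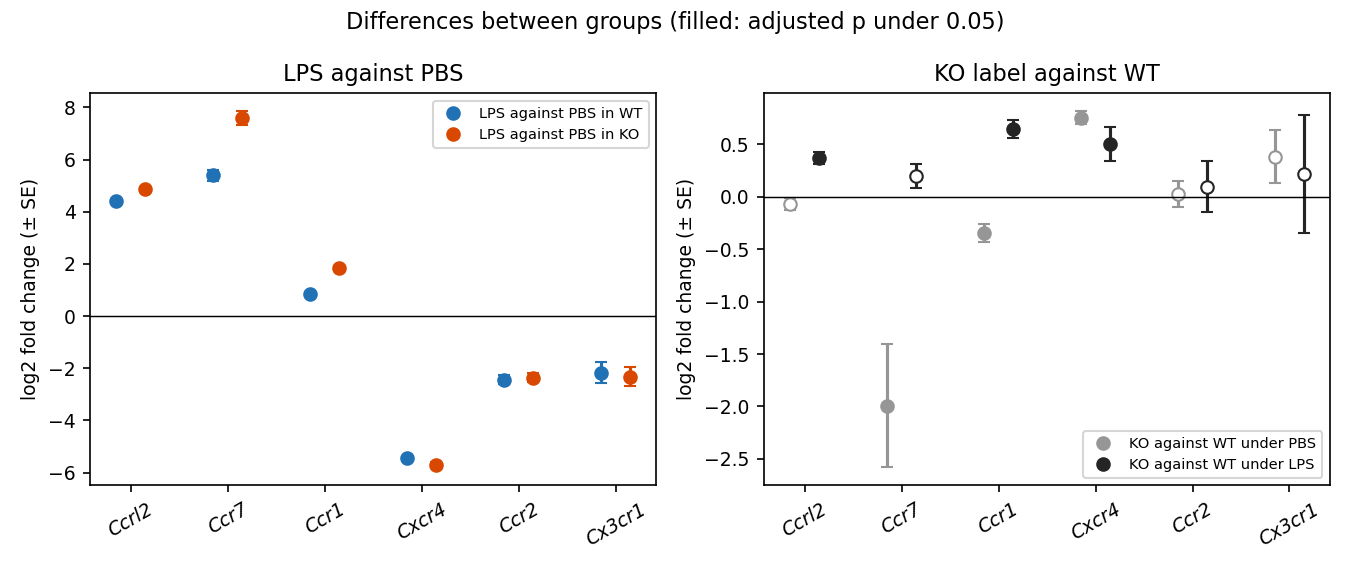
Log2 fold change of each receptor with its SE from the edgeR model, for LPS against PBS under each label (left) and for the KO label against WT under each treatment (right). Filled points passed at an adjusted p under 0.05 and open points did not. For Ccr7 in KO PBS every library was at or under the floor, so its points that use that group are fitted values, not bounds. Ccr1 lies under 0 at rest and over 0 with LPS in the right panel.

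**Figure D4:**
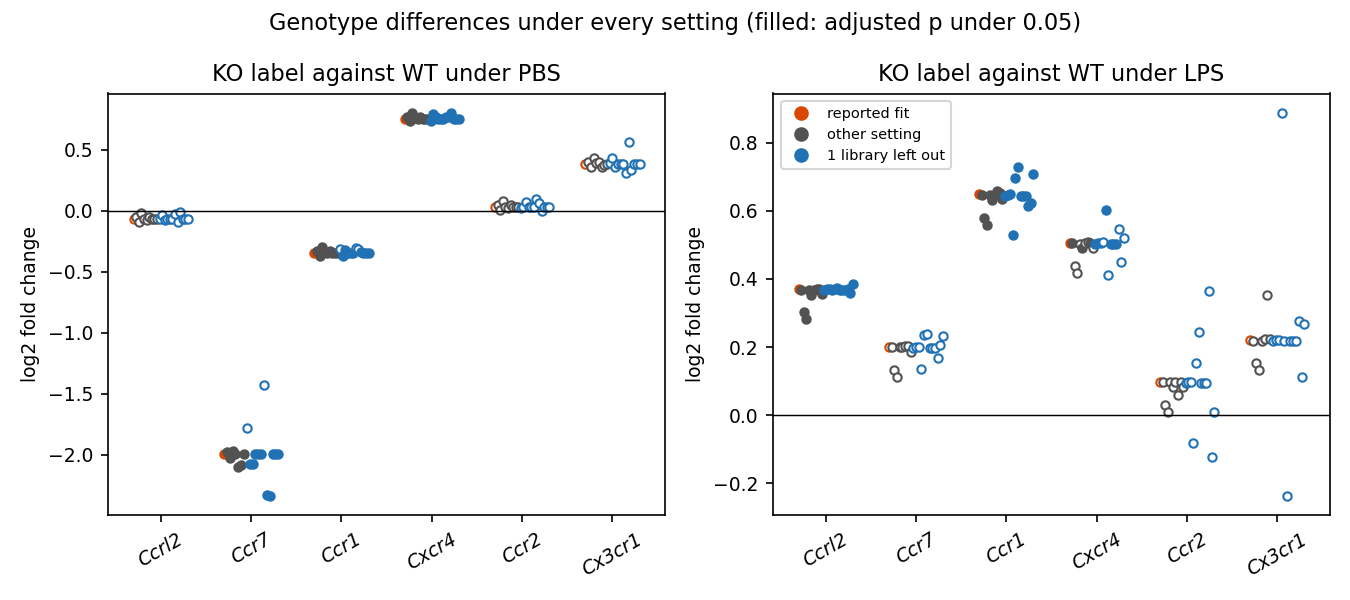
Log2 fold change of the KO label against WT under PBS (left) and LPS (right) in the reported fit and under each alternative, with filled points where the adjusted p was under 0.05. Cxcr4 stayed between 0.73 and 0.80 under PBS and between 0.41 and 0.60 under LPS, where 11 of its points are open, and Ccr2 and Cx3cr1 took both signs under LPS.

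The responses to LPS were then compared between the labels with an interaction term, which is positive where the log2 change was greater in KO-labelled cells. It passed for Ccrl2, Ccr1 and Ccr7, all positive, and for 18% of all genes tested (9.78% positive, 8.26% negative). For Ccr1 it was 0.99 ± 0.125 (adjusted p = 5.31e-05), and the gene passed as lower at rest and as higher under LPS in KO-labelled cells. For Ccrl2 it was 0.44 ± 0.0806 (adjusted p = 0.00138), with no detected difference at rest. For Ccr7 the fitted value was 2.19 ± 0.598 (adjusted p = 0.0185). It turns on the few counts of the PBS libraries, since KO PBS was under the floor, and it did not pass without WT PBS replicate 1 (1.98, adjusted p = 0.0682) or KO PBS replicate 1 (1.63, adjusted p = 0.0980). For Cxcr4 (-0.25 ± 0.177, adjusted p = 0.463), Ccr2 (0.069 ± 0.269, adjusted p = 0.903) and Cx3cr1 (-0.16 ± 0.641, adjusted p = 0.903) no difference in response was detected.

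The ligands of these receptors mostly rose with LPS. Of 14 ligand genes, 12 were in the files and 11 tested, and 8 rose and 1 fell with LPS in WT, with a median log2 fold change of 3.77 against -0.048 over all genes, of which 36.5% rose and 40.2% fell. Ccl3 and Ccl5, which act on Ccr1, rose by 6.78 ± 0.0741 (adjusted p = 3.41e-19) and 8.90 ± 0.169 (adjusted p = 1.86e-15). Ccl7 and Ccl12, ligands of Ccr2, rose by 6.38 ± 0.121 (adjusted p = 6.80e-17) and 8.92 ± 0.365 (adjusted p = 7.96e-10). Cxcl12, the ligand of Cxcr4, was not called (0.019 ± 0.318, adjusted p = 0.957). Chemerin (Rarres2), the ligand of Ccrl2, was at or under the floor in every library.

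In the KO-labelled cells 9 ligands rose and 1 fell with LPS, where 38.8% of all genes rose and 41.1% fell. At rest 6 of the 11 were lower in KO-labelled cells and none higher (median -1.33), against 13% and 12.3% of all genes. Under LPS 5 were higher and 4 lower, against 22.1% and 19.3% of all genes. The interaction passed as positive in 7 and as negative in 2, against 9.78% and 8.26% of all genes, with the largest values among those that passed for Cx3cl1 (2.54 ± 0.646, adjusted p = 0.0129), Ccl5 (2.50 ± 0.224, adjusted p = 7.92e-06) and Ccl7 (1.99 ± 0.148, adjusted p = 5.30e-07). Cx3cl1, the ligand of Cx3cr1, reached 1.37 ± 0.319 CPM with LPS in WT and 3.43 ± 0.334 CPM with LPS in KO-labelled cells, and its interaction is a fitted value because its resting counts were at or near the floor. It was 2.14 and did not pass without WT PBS replicate 3.

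Most other receptors of the family were too scarce to test. Of 20 other chemokine and chemerin receptors 19 were in the files and 7 tested, and with LPS in WT 5 of these rose and 2 fell, where 76.7% of all genes passed. Ccr9 (3.93 ± 0.488) and Xcr1 (3.28 ± 0.472) rose, and Cxcr3 (-3.86 ± 0.341) and Cxcr1 (-2.24 ± 0.259) fell. None of these 4 averaged over 2.01 CPM in a WT group, and as their lower group was at or near the floor their changes are fitted values. Single resting libraries moved those of Ccr9 and Xcr1: Ccr9 was 3.37 without WT PBS replicate 2 and 5.21 without WT PBS replicate 3, and Xcr1 was 2.99 without WT PBS replicate 3 and 4.14 without WT PBS replicate 1. Not all of the list was scarce. Cmklr1 went from 66.2 ± 1.26 CPM in WT PBS to 176 ± 35.0 CPM in WT LPS (log2 fold change 1.41 ± 0.109, adjusted p = 1.02e-08). At rest 3 of the 7 were higher and 1 lower in KO-labelled cells, where 25.3% of all genes passed, and under LPS 1 was higher, where 41.4% passed.

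The machinery behind the receptors moved in both directions. Of 29 genes for G protein subunits, receptor kinases, arrestins, RGS proteins and downstream enzymes, 28 were tested, and 14 rose and 12 fell with LPS in WT (median 0.16 against -0.048 over all genes), where 76.7% of all genes passed. Arrb1, which encodes beta-arrestin 1 and helps to silence and internalise receptors, fell from 132 ± 5.63 to 6.10 ± 1.99 CPM (log2 fold change -4.44 ± 0.141, adjusted p = 1.20e-13). Rgs2, which speeds the switching off of G proteins, fell by 2.34 ± 0.168, whereas Rgs14 of the same family rose by 2.89 ± 0.0637. Pik3r6, a regulatory subunit of phosphoinositide 3-kinase gamma, rose by 2.24 ± 0.0721. In KO-labelled cells 14 rose and 13 fell, where 79.9% of all genes passed. Between labels 5 were higher and 1 lower at rest, where 25.3% of all genes passed, and 8 were higher and 9 lower under LPS, where 41.4% passed. The interaction passed as positive in 5 and as negative in 5, and passed for 18% of all genes. Among those that passed, it was most negative for Rgs2 (-1.68 ± 0.263, adjusted p = 0.000855), Rgs10 (-0.50 ± 0.111, adjusted p = 0.00548) and Grk5 (-0.43 ± 0.106, adjusted p = 0.0104), a kinase that marks active receptors for arrestins.

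For each receptor the genes with the most similar profile over the 12 libraries were sought among 9319 or 9320 candidates, by the root mean square difference of centred log2 CPM. Ccrl2 was closest to Cd274, which encodes the checkpoint ligand PD-L1, with a difference of 0.0592, followed by Sod2 (0.105) and Daxx (0.128). Ccr7 was closest to Gch1 (0.0929), and Ccr1 to Gm21188 (0.107), Coq10b (0.119) and Igsf6 (0.130). Cxcr4 had no neighbour as near, its nearest being Cebpa (0.218), a myeloid transcription factor that averaged 376 CPM in WT PBS, 12.3 in WT LPS, 537 in KO PBS and 12.95 in KO LPS, followed by Kcnj2 and Lpar5 at 0.376 each. E2f6 (0.179) and Fhod1 (0.184) were near to Ccr2, and Cx3cr1 was closest to H6pd (0.133). The 0.5 CPM added before taking logs exceeded Ccr7 at rest (0 to 0.253 CPM) and Cx3cr1 with LPS (0.0564 to 0.405 CPM). The profiles of Ccr7 and Cx3cr1 matched here are therefore flatter than their reported changes with LPS. These distances are a description of 12 libraries in 4 groups, and carry no test.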

How the data were processed

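Counts per gene were deposited by the authors, 1 table per library, in the form of expected counts (estimated, partly with decimals) that had not been scaled. The submitters' processing notes name Bowtie2, RSEM 1.3.1 and GRCm38.p6, whereas the study's methods name STAR and HTSeq. Decimals were present in 24.6% to 26.9% of a library's values. Here counts were rounded, filtered with filterByExpr, scaled with TMM and fitted in 1 edgeR 4.0.16 quasi-likelihood model over all 12 libraries (R 4.3.3, limma 3.58.1). Two-sided p-values were corrected by Benjamini-Hochberg over 12064 genes (threshold 0.05) and measure only the spread between these libraries. For groups with every library at or under the floor of 3 counts, folds are bounds against it. Floors cover counting error only, as reads carried no molecular identifiers.

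The members and gene lists were chosen with earlier results of these data known. From each list the 4 genes with the largest change with LPS in WT and the 3 with the largest interaction were named, among those that passed and averaged 1 CPM or more in the higher group. The 3 nearest profiles were sought for each member among genes averaging 5 CPM or more in any group, with a pseudocount of 0.5 CPM, and not all are named. Cxcl12, Rarres2, Cmklr1 and the marker genes named beside a sum were added after their values were seen. A few genes that the rule would name are not reported here. Genes between Ccrl2 and Ccr1 were given by counts only, since there were 278. The model was tested on simulated data. Alternatives were RLE and upper-quartile scaling, library totals alone, no filter, a minimum of 10 counts per library, limma-voom on unrounded counts, DESeq2 1.42.0, a fit to the compared libraries alone, a replicate block, and leaving out each library. Transcripts were those of GENCODE (GRCm38), and promoters those of RefSeq (GRCm38.p6), which covered 5 of 6 members.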

Additional observations from a re-analysis of the deposited data

Results flagged for a closer look

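The response to LPS differed between the genotype labels, by the interaction term of the edgeR model, for 3 of the 6 receptors, as it did for 18% of all genes tested (9.78% positive). The difference (KO-labelled minus WT, log2 scale) was 0.44 for Ccrl2, 0.99 for Ccr1 and 2.19 for Ccr7, the last a fitted value with KO PBS under the floor.

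Among the genes named from the lists, it was 2.54 for Cx3cl1, 2.50 for Ccl5 and 1.99 for Ccl7, and negative for Rgs2 (-1.68), Rgs10 (-0.50) and Grk5 (-0.43). For Cx3cl1, whose counts at rest were at or near the floor, it was 2.14 without WT PBS replicate 3 and did not pass.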

How the results depend on the processing

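Over the members' 30 values (6 genes in 5 contrasts), leaving out 1 library kept direction and call in 341 of 360 fits, lost a call in 12 and turned the sign of an uncalled value in 7. The other settings kept both in 244 fits, lost a call in 7 and turned a sign in 1. Where Ccr7 or Cx3cr1 failed a stricter or smaller filter there was no value.

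Ccr1 with LPS in WT was lost with library totals alone (0.19). Cxcr4 between labels under LPS was lost with upper-quartile scaling (0.44), library totals alone (0.42), no filter (0.50), DESeq2 (0.51), limma-voom (0.51) and only the libraries compared (0.49), and ranged from 0.41 to 0.60 with 1 library left out. The cause was not tested. With 1 library left out, Ccr7 between labels under PBS ranged from -2.34 to -1.43, Ccr1 there from -0.37 to -0.30, and the interaction of Ccr7 from 1.63 to 2.54. The number of members called lower under PBS, 2 in the reported fit, was 1 with at least 10 counts in every library and 1 with only the libraries compared, since Ccr7 was not tested there, and 0 to 2 with 1 library left out.

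Signs turned for uncalled values only. Ccr2 between labels under LPS ranged from -0.12 to 0.37 (-0.082 without WT LPS replicate 1, -0.12 without KO LPS replicate 2), and Cx3cr1 there from -0.24 (without WT LPS replicate 3) to 0.89. The interaction of Ccr2 was -0.069 with library totals alone and ranged from -0.15 to 0.34 with 1 library left out (-0.11 without WT LPS replicate 1, -0.15 without KO LPS replicate 2, -0.020 without KO LPS replicate 3). That of Cx3cr1 ranged from -0.62 to 0.50 (0.50 without WT LPS replicate 1).

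Scaling moved the median log2 change of all genes with LPS in WT by 0.0457 (RLE), -0.31 (upper quartile) and -0.66 (library totals), and the share of called genes that were higher was 32.5% and 21.2% under the last 2. In KO-labelled cells library totals moved it by -0.80. Between PBS and LPS, deviations of same-numbered libraries correlated at 0.209, 0.222 and -0.0371 in WT and at 0.0395, 0.137 and 0.108 in KO-labelled cells. Those of different-numbered libraries ranged from -0.295 to 0.184 in WT and from -0.115 to -0.00619 in KO-labelled cells. Between labels, same-numbered libraries ranged from -0.258 to 0.253. Whether same-numbered libraries shared cells is not given in the sources used here, and these correlations cannot settle it. With the replicate number as a block, no call of a member changed, and Cxcr4 between labels under LPS was 0.51 (adjusted p = 0.0398).

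Low counts of Ccr7 at rest, and of Cx3cr1 and Cxcr4 with LPS, limit precision, as do 3 libraries per group. Protein and cell numbers were not measured in these files, and the table shows no loss of Ythdf1 mRNA under the KO label.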
